A study of Homo sapiens with 18 samples.

Results

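The transcripts described here come from 10 genes of bone morphogenetic protein (BMP) signalling, out of 58825 genes in the count tables. They are NOG and FST, which encode secreted antagonists, the ligand genes BMP2, BMP4 and BMP7, the signal transducer SMAD1, the inhibitory SMAD6, and the target genes ID1, ID2 and ID3. The genes were taken as a named list, matched by symbol, and NOG was put on it because its transcript fell strongly after 4 h of BET inhibition, so the list was in part chosen by these measured values. The values of NOG at 4 h are therefore a description without a test, and only its values at 24 h, which that choice did not use, were tested. All 10 genes were found, and 9 of them passed the filter on low counts at both time points. BMP2 did not pass and is given by its counts.

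OVCAR-3, an established cell line of high-grade serous ovarian carcinoma (HGSC), was grown in 12-well plates and treated in stripped medium. The 6 groups, with 3 libraries each, received DMSO for 4 h, 1 µM i-BET858 for 4 h, 1 µM i-BET151 for 4 h, DMSO for 24 h, 1 µM i-BET858 for 24 h or 1 µM i-BET151 for 24 h. Both compounds are BET inhibitors (BETi), a class of compounds that bind bromodomains, the protein modules that read acetylated lysines on chromatin. i-BET151 is an earlier inhibitor of this family, and the study describes i-BET858 as a bivalent inhibitor of all BET proteins. The study calls the 3 libraries of a group biological replicates, but all come from 1 cell line, so the p-values measure the spread between samples of this line only.

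BMPs are secreted dimers of the TGFβ superfamily that bring together type I and type II receptor kinases. The activated receptors phosphorylate SMAD1, SMAD5 and SMAD9, which enter the nucleus with SMAD4 and switch on target genes such as the ID genes and SMAD6, a feedback inhibitor. Noggin, the product of NOG, holds BMPs outside the cell, and follistatin, the product of FST, binds activins most tightly and some BMPs as well. In the ovary, BMPs and activins regulate the growth of follicles, and ovarian cancer cells are known to both produce and respond to them.

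Each library held between 27323969 and 46299994 counts (median 32267434). The 6 libraries of replicate 3 stand apart. They had a count in 17817 to 20642 genes, while the libraries of replicates 1 and 2 had one in 23674 to 24947 and in 23807 to 24938. Calls of members that changed without replicate 3 are given both ways, and the counts over pathway genes without it are given after the last list. All 10 markers listed for OVCAR-3, among them PAX8, MUC16 and WT1, exceeded 1 CPM (counts per 1e+06 counts of a library, after correction of its total by edgeR's TMM factor) in the mean of every group. Of 12 markers of fibroblasts, leukocytes and endothelium, at most 3 did so in any group, the most abundant of them was COL1A1, at 21.1 to 46.6 CPM, and DCN, LUM, CD3E and CD68 had a median of 0. The summed OVCAR-3 markers lay between 8650 and 10117 CPM with DMSO, 11562 and 12114 under i-BET858 and 9769 and 10302 under i-BET151 at 4 h, and at 24 h between 8758 and 10223, 7046 and 7353, and 7005 and 7492, so they did not overlap the controls except under i-BET151 at 4 h. Their part in the results was not tested. The summed markers of these other cells lay between 26.0 and 47.8 CPM with DMSO at 4 h, 34.1 and 53.2 under i-BET858, and 29.6 and 56.8 under i-BET151. At 24 h they lay between 32.4 and 41.4, 23.1 and 34.4, and 24.2 and 32.0 in the same order. In these bulk samples, fewer cells that express a gene cannot be told apart from less RNA per cell.

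The clearest changes were a deep and lasting fall of NOG and a fall of FST that was smaller at 24 h than at 4 h. With them came a fall of BMP7 that was larger at 24 h than at 4 h, and rises of ID1 and ID2 at 24 h. ID1 was already called as higher at 4 h. A transcript was called up- or down-regulated at a Benjamini-Hochberg adjusted p under 0.05 in edgeR's quasi-likelihood test. After 4 h of i-BET858, 4 of the 8 members tested were called, FST, SMAD1 and BMP7 as lower and ID1 as higher, where 30.8% of all 17192 transcripts tested were called, 14.5% higher and 16.3% lower. After 4 h of i-BET151, 2 of 8 were called, FST as lower and ID1 as higher, against 16.2% of all transcripts (7.81% higher and 8.43% lower). With the replicate number as a block, this second count was 5, because BMP7, SMAD1 and ID2 were added, while the calls over all transcripts went from 2791 to 5616 of 17192.

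After 24 h of i-BET858, 8 of the 9 members tested were called, with NOG, FST, BMP7 and SMAD1 lower and ID1, ID2, ID3 and SMAD6 higher. Of all 17157 transcripts tested there, 41.7% were called, 20.5% higher and 21.3% lower. After 24 h of i-BET151, 5 of 9 were called, with NOG, FST and BMP7 lower and ID1 and ID2 higher, against 33.8% of all transcripts (17.2% higher and 16.6% lower). Without replicate 3 this last count was 8, with BMP4 and SMAD1 added as lower and ID3 as higher, while the calls over all transcripts went from 5797 of 17157 to 9367 of 17297. With a 2-fold threshold as well, FST alone was called at 4 h with either compound, against 14.1% (i-BET858) and 7.1% (i-BET151) of all transcripts. At 24 h the same rule called 5 members under i-BET858 (NOG, FST, BMP7, ID1 and ID2; 18.8% of all) and 3 under i-BET151 (NOG, FST and ID2; 13.7%). The libraries of a compound and of DMSO did not overlap for 44.6% and 36.7% of all transcripts at 4 h, and for 55.1% and 48.9% at 24 h, under i-BET858 and i-BET151. The members were chosen with results in view, so no test was made of these counts as such. The median change over all transcripts lay between −0.01 and 0.02 on the log2 scale in the comparisons with DMSO. When libraries were scaled by their totals instead of TMM factors, the split of all calls under i-BET858 at 4 h moved from 2497 higher of 5303 to 1745 higher of 5465.

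**Figure D1:**
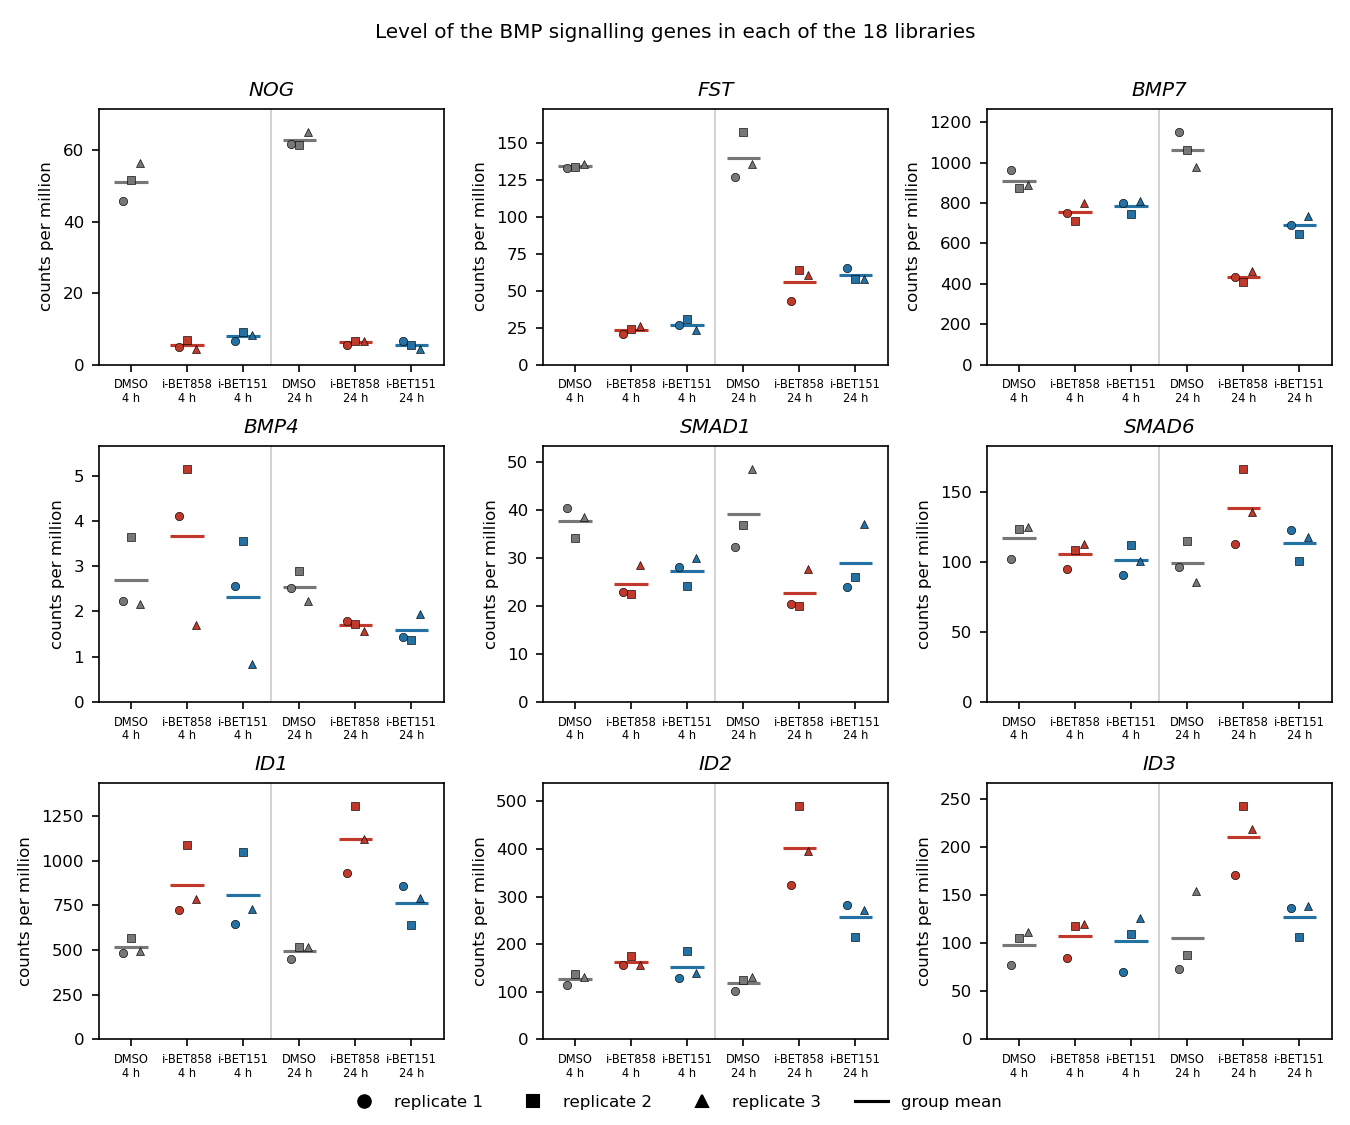
Level of 9 of the genes in CPM in each of the 18 libraries (vertical axes start at 0), by treatment and time, with a symbol for each replicate number and a line at the group mean. NOG stayed below 10 CPM in all treated libraries and above 45 CPM in all DMSO libraries, while ID2 reached 323 to 490 CPM under i-BET858 at 24 h.

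NOG lies on chromosome 17 as a single exon of 1913 bp (GRCh38, chr17:56593699-56595611, plus strand). With DMSO for 4 h its level was 45.7, 51.8 and 56.4 CPM in replicates 1, 2 and 3. With i-BET858 for 4 h it was 4.85, 6.89 and 4.49 CPM, and under i-BET151 it was 6.70, 9.12 and 8.37 CPM. Treated and control libraries were thus far apart, and the lowest DMSO library held several times the level of the highest treated one. The mean under i-BET858 was 10.5% of that with DMSO and the mean under i-BET151 was 15.7%. On the log2 scale the fitted changes were −3.24 ± 0.20 (SE) and −2.67 ± 0.20, which are the values that led to the choice of NOG and are given without a test. Ordered by fitted change, NOG was 20th from the bottom of 17192 transcripts under i-BET858 and 47th under i-BET151.

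At 24 h the level of NOG with DMSO was 61.8, 61.6 and 65.2 CPM. It was 5.48, 6.75 and 6.52 CPM under i-BET858 and 6.61, 5.59 and 4.45 CPM under i-BET151. The groups again did not overlap. Under i-BET858 NOG stayed near its level at 4 h, and under i-BET151 each of the 3 libraries was lower than each at 4 h. The fall was 10.4-fold under i-BET858 (log2 −3.37 ± 0.16, edgeR adjusted p = 5.33e-07) and 11.5-fold under i-BET151 (log2 −3.52 ± 0.16, edgeR adjusted p = 1.27e-06). Both falls were seen in 9 of 9 pairings of a treated with a control library, and leaving out single libraries or replicate 3 kept them between −3.28 and −3.43 and between −3.37 and −3.67.

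The 5 transcripts most like NOG over the 18 libraries, by Pearson correlation of log2 CPM among the 12444 transcripts whose average log2 CPM was 1 or more, were TFAP4 (r = 0.98), CCDC102A (r = 0.97), MTA2 (r = 0.97), TRPM2 (r = 0.96) and ENSG00000226816 (r = 0.96), an identifier without a unique symbol here. Over the 12 libraries without replicate 3, TFAP4 stayed at rank 1, while MTA2 was at rank 7, CCDC102A at 11, ENSG00000226816 at 12 and TRPM2 at 43. TFAP4, which encodes a helix-loop-helix transcription factor, had means of 30.9 CPM with DMSO, 8.56 under i-BET151 and 5.89 under i-BET858 at 4 h, and of 36.2, 7.87 and 5.78 CPM at 24 h. MTA2, a subunit of the NuRD chromatin complex, followed NOG in shape but not in depth, with 258 CPM with DMSO and 156 under i-BET858 at 4 h. These correlations describe 18 libraries that share 6 group levels, and carry no p-value. Among the members, FST (r = 0.84, rank 341) and SMAD1 (r = 0.74, rank 876) followed NOG most closely, and ID1 (r = −0.76) and ID2 (r = −0.64) ran opposite to it.

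FST lies on chromosome 5 (GRCh38, chr5:53480626-53487134, plus strand), with 2752 bp of exons in 6 blocks. It is the member called as lower with both compounds at both times, so its promoter is shown. The 250 bases before its RefSeq start (GRCh38.p14) read as follows, in lower case because none of the searched motifs occurs in them:
FST, chr5:53480379-53480628, plus strand: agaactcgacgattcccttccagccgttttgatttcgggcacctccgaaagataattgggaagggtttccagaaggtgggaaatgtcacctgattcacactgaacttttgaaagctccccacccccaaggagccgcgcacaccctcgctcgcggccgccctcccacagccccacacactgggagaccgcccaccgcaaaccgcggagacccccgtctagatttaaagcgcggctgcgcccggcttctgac
The motifs were GGCGCC, a GC-rich element bound by BMP-activated SMADs, GTCTAGAC, a palindromic SMAD site, CACGTG, an E-box, and TATAAA, the TATA box, each read on both strands. They occur in 16.4%, 0.182%, 6.35% and 10.7% of the 35116 promoters of that length in the RefSeq table.

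With DMSO for 4 h, FST stood at 133, 134 and 136 CPM. It stood at 20.8, 24.2 and 26.0 CPM under i-BET858 and at 26.6, 31.2 and 23.2 CPM under i-BET151. The control libraries lay close together and the treated ones far below, with means of 17.6% and 20.1% of the control. The falls were 5.67-fold under i-BET858 (log2 −2.50 ± 0.14, edgeR adjusted p = 9.73e-07) and 4.99-fold under i-BET151 (log2 −2.32 ± 0.14, edgeR adjusted p = 5.96e-06).

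At 24 h FST was 127, 158 and 136 CPM with DMSO, 43.4, 64.3 and 60.7 CPM under i-BET858, and 65.4, 58.3 and 58.2 CPM under i-BET151. All treated libraries were still below all controls, but their means were 40.1% and 43.2% of the control, so that part of the early fall had been made up. The fall was 2.56-fold under i-BET858 (log2 −1.36 ± 0.15, edgeR adjusted p = 5.03e-05) and 2.35-fold under i-BET151 (log2 −1.23 ± 0.15, edgeR adjusted p = 0.000153). The change of the effect from 4 to 24 h, tested as the interaction of drug and time over 18 libraries, was 1.19 ± 0.20 on the log2 scale for i-BET858 (edgeR adjusted p = 0.000339) and 1.11 ± 0.20 for i-BET151 (edgeR adjusted p = 0.00171). NOG showed no such return, with changes of −0.09 and −0.83, which are given without a test because they contain the 4 h values.

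Among the secreted antagonists, NOG and FST included, loss was more common at 24 h than gain. Apart from NOG, 11 of 17 listed antagonists could be tested at 4 h, and under i-BET858 3 fell (FST, SOSTDC1 and BMPER) and 2 rose (FSTL1 and FSTL3), with a list median of 0.22, where 30.8% of all transcripts were called. With i-BET151 the same 3 fell and FSTL3 rose, where 16.2% of all were called. With the replicate block FSTL1 was called as higher under i-BET151 as well. BMPER, an extracellular BMP-binding protein, went from 4.04 ± 1.40 CPM (SD, n = 3) with DMSO to 0.557 ± 0.170 under i-BET858 and 0.806 ± 0.248 under i-BET151 (edgeR adjusted p = 0.000514 and 0.00360). FSTL3, a relative of follistatin, went the other way, from 34.1 ± 2.39 CPM to 84.0 ± 13.5 and 55.7 ± 9.43 (edgeR adjusted p = 0.000121 and 0.0117).

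At 24 h, 6 of 12 antagonists fell under i-BET858 and the same 6 under i-BET151, namely NOG, FST, SOSTDC1, BMPER, KCP and CHRDL1. CRIM1 rose with both. Of all transcripts, 41.7% and 33.8% were called, 21.3% and 16.6% as lower. The list medians, with NOG and FST in the list, were −1.21 and −1.19, beside −0.01 and 0.0046 over all transcripts. SOSTDC1, which encodes an antagonist of BMPs and WNTs, went from 16.4 ± 2.94 CPM with DMSO to 2.05 ± 0.266 under i-BET858 and 2.79 ± 1.19 under i-BET151. CHRDL1, a chordin-like antagonist that stood at 40.0 ± 9.06 CPM with DMSO and 44.7 ± 6.88 under i-BET858 at 4 h, went from 46.1 ± 7.45 to 12.2 ± 3.26 and 13.2 ± 1.24 CPM at 24 h. CRIM1, a membrane protein that binds BMPs, rose from 167 ± 7.85 to 362 ± 38.0 and 332 ± 33.2 CPM. KCP was near its detection limit, at 0.478 ± 0.275 CPM with DMSO. Both compounds are compared with the same DMSO libraries, so these shared calls are not independent of each other.

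Of the 3 ligand genes among the members, BMP7 was by far the most abundant per length (GRCh38, chr20:57168753-57266641, minus strand, 5425 bp of exons). With DMSO for 4 h it averaged 168 ± 8.67 CPM per kilobase, against 0.868 ± 0.272 for BMP4. In CPM, BMP7 measured 963, 874 and 892 with DMSO, 753, 713 and 803 under i-BET858 and 799, 744 and 809 under i-BET151. Treated libraries lay below controls without overlap, yet the distance was small. The change was −0.26 ± 0.09 on the log2 scale under i-BET858 (edgeR adjusted p = 0.0448) and −0.22 ± 0.09 under i-BET151 (edgeR adjusted p = 0.132, 0.0150 with the replicate block and 0.0358 with scaling by library totals). The call under i-BET858 was lost (edgeR adjusted p = 0.0512 to 0.138) when replicate 1, 2 or 3 of DMSO, replicate 1 or 2 of i-BET858, or replicate 1 or 2 of i-BET151 was left out. It was also lost with DESeq2's size factors, without a filter on low counts and in a fit of 2 groups only (edgeR adjusted p = 0.0580, 0.157 and 0.105).

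At 24 h the distance had grown. BMP7 measured 1153, 1062 and 979 CPM with DMSO, 435, 410 and 462 CPM under i-BET858, and 693, 648 and 734 CPM under i-BET151. The 3 groups did not overlap, and those under i-BET151 lay between the others. The fall was 2.51-fold under i-BET858 (log2 −1.33 ± 0.10, edgeR adjusted p = 3.04e-06) and 1.56-fold under i-BET151 (log2 −0.64 ± 0.09, edgeR adjusted p = 0.000486).

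BMP7 was also the only member for which the compounds themselves differed by the unblocked edgeR test. ID1 and ID2 were called as well at 24 h with the replicate block or DESeq2. At 24 h BMP7 was 1.61-fold lower under i-BET858 than under i-BET151 (log2 −0.69 ± 0.09, edgeR adjusted p = 0.0376), in 9 of 9 pairs. This call depended on the set of libraries: edgeR adjusted p rose to between 0.0762 and 0.215 when any 1 of 8 libraries (replicates 1 to 3 of i-BET858, replicates 1 to 3 of i-BET151, or replicate 1 or 2 of DMSO) was left out, although the difference stayed between −0.62 and −0.73. A fit of 2 groups only gave an edgeR adjusted p of 0.104, and without replicate 3 the difference was −0.66 (edgeR adjusted p = 0.000721). The effect on BMP7 grew from 4 to 24 h by −1.02 ± 0.13 under i-BET858 (edgeR adjusted p = 1.66e-05) and by −0.41 ± 0.13 under i-BET151 (edgeR adjusted p = 0.0382). The second of these was lost without the filter on low counts (log2 −0.40, edgeR adjusted p = 0.231). It was also lost (edgeR adjusted p = 0.0535 to 0.113) without replicate 2 or 3 of DMSO or replicate 1 or 3 of i-BET151 at 4 h, or without replicate 1 or 2 of DMSO, replicate 1 or 2 of i-BET151 or replicate 1 of i-BET858 at 24 h.

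BMP4 was rare, at 2.24, 3.66 and 2.16 CPM with DMSO, 4.12, 5.15 and 1.70 CPM under i-BET858 and 2.57, 3.56 and 0.842 CPM under i-BET151 at 4 h. These groups overlapped widely, and replicate 3 was the lowest in each. Neither change passed the test (log2 0.44 ± 0.51, edgeR adjusted p = 0.566, and −0.22 ± 0.52, edgeR adjusted p = 0.826). At 24 h BMP4 was 2.51, 2.90 and 2.23 CPM with DMSO, 1.78, 1.72 and 1.58 CPM under i-BET858 and 1.44, 1.37 and 1.95 CPM under i-BET151. All treated libraries were below all controls, but the changes of −0.62 ± 0.29 and −0.70 ± 0.29 did not pass (edgeR adjusted p = 0.107 and 0.0852). Without replicate 3 both passed, at −0.65 (edgeR adjusted p = 0.0199) and −0.98 (edgeR adjusted p = 0.00289), and under i-BET151 the change also passed without replicate 3 of that group alone (log2 −0.89, edgeR adjusted p = 0.0382) and, with all libraries, in DESeq2 (log2 −0.72, adjusted p = 0.0423). The change of the effect of i-BET858 from 4 to 24 h was −1.02 ± 0.62 (edgeR adjusted p = 0.247), and −1.28 without replicate 3 (edgeR adjusted p = 0.0132). An exon of BMP4 overlaps the gene ENSG00000287156 on the other strand, and since the strand setting of the counting is not given in the sources used here, reads of the pair cannot be told apart.

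BMP2 had 0 counts in each of the 3 DMSO libraries at 4 h and 2, 7 and 14 counts in the libraries of i-BET858. It had 1, 1 and 0 counts under i-BET151 at 4 h, and at 24 h only 2 counts, both in 1 library of i-BET858. More than 2 counts were thus found only in replicates 2 and 3 of i-BET858 at 4 h. Pooled over the group, 23 counts (95% Poisson interval 14.6 to 34.5, counting error only) lay 8.51-fold above a floor of 3 counts over the DMSO group, and the lower limit of the interval 5.39-fold above it. Without replicate 3 of i-BET858, which held 14 of the counts, the ratio to the floor was 5.35, so the size of the rise is poorly bounded. The rise of BMP2 was called only in the fit without a filter on low counts.

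Most of the other tested ligand genes were scarce and moved up. With i-BET858 at 4 h, 5 of 9 tested ligands rose (BMP6, BMP8A, BMP8B, GDF6 and AMH) and 2 fell (BMP3 and BMP7), with a list median of 1.12 beside 0.02 over all transcripts, of which 30.8% were called. With i-BET151, 4 rose and BMP3 fell, where 16.2% of all were called. BMP6 went from 1.12 ± 0.227 CPM with DMSO to 7.96 ± 1.93 under i-BET858 and 4.20 ± 2.10 under i-BET151 (edgeR adjusted p = 0.000365 and 0.00867). At 24 h BMP6, BMP8A, BMP8B and GDF6 were higher and BMP3 and BMP7 lower with each compound, beside 41.7% (i-BET858) and 33.8% (i-BET151) of all transcripts called. BMP3, an atypical ligand that opposes other BMPs, went from 4.32 ± 0.648 CPM with DMSO to 0.0858 ± 0.0871 under i-BET858 and 0.458 ± 0.0473 under i-BET151 (edgeR adjusted p = 6.28e-05 and 0.00105). None of these ligand transcripts came near the abundance of BMP7.

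Set against each other per length, BMP7 and NOG shifted in their proportion, as NOG fell further than BMP7. The ratio of BMP7 to NOG in CPM per kilobase was 6.32 ± 0.980 (SD, n = 3) with DMSO at 4 h, 51.4 ± 13.6 under i-BET858 and 35.0 ± 6.69 under i-BET151. At 24 h it was 5.98 ± 0.648, 24.8 ± 3.28 and 45.3 ± 11.3 in the same order. The ratio under i-BET858 was thus lower at 24 h than at 4 h, as BMP7 had fallen while NOG had stayed low. It is given as a description, since NOG at 4 h chose the list.

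**Figure D2:**
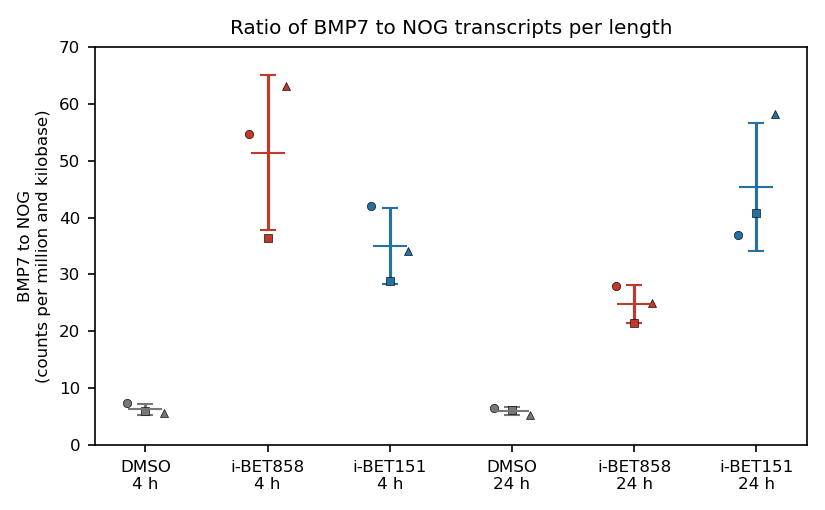
Ratio of BMP7 to NOG in CPM per kilobase of exon in each library (symbols as replicate numbers), with the group mean and SD (n = 3). The 6 DMSO libraries lie between 5.29 and 7.43, and the lowest treated library, under i-BET858 at 24 h, is at 21.4.

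SMAD1, which carries the signal of type I BMP receptors (GRCh38, chr4:145481194-145559176, plus strand), fell modestly. At 4 h it measured 40.5, 34.2 and 38.4 CPM with DMSO, 22.8, 22.6 and 28.5 CPM under i-BET858 and 28.0, 24.1 and 29.9 CPM under i-BET151. Neither treated group overlapped the controls. The fall was 1.53-fold under i-BET858 (log2 −0.61 ± 0.15, edgeR adjusted p = 0.00927). With i-BET151 it missed the threshold (log2 −0.47 ± 0.15, 95% interval −0.79 to −0.14, edgeR adjusted p = 0.0555), but passed with the replicate block (edgeR adjusted p = 0.00493), without replicate 3 (log2 −0.53, edgeR adjusted p = 0.0262) and without replicate 3 of i-BET858 alone (edgeR adjusted p = 0.0370). It also passed with DESeq2 (adjusted p = 0.0261), with scaling by library totals and in a fit of 2 groups only (edgeR adjusted p = 0.0220 and 0.0495).

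At 24 h SMAD1 measured 32.2, 36.9 and 48.5 CPM with DMSO, 20.5, 19.9 and 27.7 CPM under i-BET858 and 24.0, 26.0 and 37.0 CPM under i-BET151. In each of the 3 groups replicate 3 was the highest library. The fall under i-BET858 was 1.78-fold (log2 −0.83 ± 0.22, edgeR adjusted p = 0.00975), while i-BET151 overlapped the controls (log2 −0.46 ± 0.21, edgeR adjusted p = 0.127). The change under i-BET151 passed with the replicate block (edgeR adjusted p = 0.00164), without the filter on low counts (edgeR adjusted p = 0.0208), without replicate 3 (log2 −0.50, edgeR adjusted p = 0.00111) and without replicate 3 of i-BET151 alone (log2 −0.68, edgeR adjusted p = 0.0289). SMAD1 overlaps SMAD1-AS1 on the other strand, with the same limit as for BMP4.

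SMAD5 was lower at 4 h and higher at 24 h. SMAD4 did the same under i-BET858, and under i-BET151 with the replicate block. SMAD5, a close relative of SMAD1, went from 58.0 ± 2.91 CPM with DMSO to 35.2 ± 5.71 under i-BET858 and 42.2 ± 3.31 under i-BET151 at 4 h, and both falls were called (edgeR adjusted p = 0.00251 and 0.0439), the second of them not without replicate 3. By 24 h SMAD5 stood at 46.9 ± 4.84 CPM with DMSO and at 64.3 ± 3.95 and 65.4 ± 4.69 with the compounds, and both rises were called (edgeR adjusted p = 0.0116 and 0.00902). SMAD4, the common partner, fell from 54.3 ± 2.71 to 35.4 ± 2.12 CPM under i-BET858 at 4 h and rose from 46.6 ± 6.13 to 60.3 ± 2.56 CPM at 24 h (edgeR adjusted p = 0.00179 and 0.0387). Under i-BET151 its changes of −0.28 ± 0.11 and 0.27 ± 0.11 were not called (edgeR adjusted p = 0.127 and 0.0934). With the replicate block both of these changes were called, and without replicate 3 the rise at 24 h was. The interaction of drug and time was called for SMAD5 and SMAD4 with both compounds, but not for SMAD1 (−0.18 and 0.03 on the log2 scale, edgeR adjusted p = 0.679 and 0.960).

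Receptor transcripts changed less evenly. Of 11 tested receptors and co-receptors, 3 fell with either compound at 4 h (ACVR2B, BMPR1A and BMPR1B) and ACVR2A and RGMB rose under i-BET858, where 30.8% (i-BET858) and 16.2% (i-BET151) of all transcripts were called. With the replicate block ACVR2A and RGMB were also called as higher under i-BET151 at 4 h, and TGFBR3 as lower. The calls over all transcripts there went from 2791 to 5616 of 17192. ACVR2B, a type II receptor shared by activins and BMPs, went from 19.4 ± 2.43 CPM to 5.92 ± 0.540 under i-BET858 and 6.24 ± 0.248 under i-BET151. At the later time ACVR2B was at 20.2 ± 2.03, 9.75 ± 2.85 and 13.6 ± 3.17 CPM, where the fall was called under i-BET858 (edgeR adjusted p = 0.00351) but not under i-BET151 (edgeR adjusted p = 0.0697), where it was called with the replicate block. BMPR1B, a type I receptor, fell to 10.8 ± 1.31 CPM under i-BET858 at 24 h from 20.7 ± 1.43 (edgeR adjusted p = 0.000247). The number of receptors called under i-BET151 at 24 h was sensitive to the fit, at 1 of 11 here and 7 of 11 with the replicate block, while the calls over all transcripts went from 5797 to 7870 of 17157.

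SMAD6 blocks the type I receptors and is itself switched on by BMP signals (GRCh38, chr15:66702236-66782849, plus strand). The 4 motifs were searched in the promoters of the 7 members with a RefSeq entry, of which BMP4 and SMAD1 have several start sites. The GC-rich element bound by SMADs and the E-box each occurred in BMP4 and SMAD1, at some of these start sites. The TATA box occurred in ID1 and at 1 start site of SMAD1, and FST, ID2 and ID3 held no match. Only SMAD6 held the palindromic SMAD site. The promoter of SMAD6 is shown for that site, chosen after its values were seen. The site is in capitals, 12 to 5 bases before the start (−12 to −5), and 64 of 35116 RefSeq promoters (0.182%) hold it:
SMAD6, chr15:66701986-66702235, plus strand: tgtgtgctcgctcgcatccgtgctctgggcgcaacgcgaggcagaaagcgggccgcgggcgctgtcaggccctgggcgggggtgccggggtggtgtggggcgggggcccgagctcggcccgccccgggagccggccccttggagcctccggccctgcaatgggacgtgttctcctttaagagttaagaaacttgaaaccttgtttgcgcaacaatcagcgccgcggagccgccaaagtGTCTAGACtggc
A match of letters is a description and does not show binding.

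At 4 h SMAD6 measured 102, 124 and 125 CPM with DMSO, 95.3, 108 and 113 CPM under i-BET858 and 90.4, 113 and 100 CPM under i-BET151. The groups overlapped, and the changes of −0.14 ± 0.13 (95% interval −0.43 to 0.14) and −0.21 ± 0.13 (−0.50 to 0.07) were not called. At 24 h it measured 96.8, 115 and 85.8 CPM with DMSO, 113, 166 and 136 CPM under i-BET858 and 123, 101 and 118 CPM under i-BET151. With i-BET858 it was higher in 8 of 9 pairs (1.36-fold, log2 0.44 ± 0.16, edgeR adjusted p = 0.0414), and under i-BET151 the change was 0.18 ± 0.16 (edgeR adjusted p = 0.420). The rise under i-BET858 lost its call without replicate 1 or 3 of DMSO, without replicate 2 or 3 of i-BET858, and without all of replicate 3 (edgeR adjusted p = 0.0567 to 0.178, log2 0.29 to 0.48), and also with scaling by library totals or a fit of 2 groups only (edgeR adjusted p = 0.115 and 0.0545). Its growth from 4 to 24 h was 0.63 ± 0.21 (edgeR adjusted p = 0.0311), a call lost without all of replicate 3 or without any of 6 single libraries (edgeR adjusted p = 0.0604 to 0.101), namely replicate 2 or 3 of DMSO and replicate 1 of i-BET858 at 4 h, and replicate 1 or 3 of DMSO and replicate 2 of i-BET858 at 24 h.

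BAMBI, a pseudoreceptor that dampens TGFβ and BMP signals, rose more than SMAD6. It went from 3.13 ± 0.283 CPM with DMSO to 36.3 ± 3.04 under i-BET858 and 18.7 ± 3.69 under i-BET151 at 4 h (edgeR adjusted p = 7.78e-07 and 1.42e-05). It was also higher under i-BET858 than under i-BET151 at that time (log2 0.96 ± 0.17, edgeR adjusted p = 0.0309), a call lost in a fit of these 2 groups only. By 24 h BAMBI was at 2.33 ± 1.35, 6.91 ± 1.38 and 5.32 ± 0.390 CPM. SKI, a repressor of SMAD-driven transcription, rose from 253 ± 46.6 to 809 ± 197 and 658 ± 170 CPM at 4 h and remained called at 24 h. Of the 10 intracellular inhibitors tested, 4 rose and 2 fell under i-BET858 at 4 h, and 3 rose and none fell at 24 h, where 30.8% and 41.7% of all transcripts were called.

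The ID genes encode helix-loop-helix proteins without a DNA-binding region, which capture E-proteins such as TCF3 and are standard readouts of BMP signalling. Per length they were among the more abundant members, with 418 ± 38.3 CPM per kilobase for ID1, 65.3 ± 12.3 for ID3 and 57.4 ± 5.25 for ID2 with DMSO at 4 h, where ID3 and ID2 did not differ beyond their spread. FST followed with 48.9 ± 0.450, NOG with 26.8 ± 2.80, SMAD6 with 13.7 ± 1.496 and SMAD1 with 5.32 ± 0.451. The promoters of ID1 and ID2 are shown, chosen after their values were seen, as those of the target genes among the members that rose with both compounds at 24 h. In ID1 the TATA box lies 31 to 26 bases before the start (−31 to −26) and overlaps a second match on the other strand (−33 to −28), both in capitals, and in ID2 none of the 4 motifs occurs:
ID1, chr20:31605039-31605288, plus strand: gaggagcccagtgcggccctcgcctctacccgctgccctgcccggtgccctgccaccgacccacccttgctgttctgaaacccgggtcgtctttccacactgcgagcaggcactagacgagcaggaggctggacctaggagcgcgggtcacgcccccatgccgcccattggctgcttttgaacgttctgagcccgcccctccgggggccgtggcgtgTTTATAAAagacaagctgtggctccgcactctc
ID2, chr2:8681806-8682055, plus strand: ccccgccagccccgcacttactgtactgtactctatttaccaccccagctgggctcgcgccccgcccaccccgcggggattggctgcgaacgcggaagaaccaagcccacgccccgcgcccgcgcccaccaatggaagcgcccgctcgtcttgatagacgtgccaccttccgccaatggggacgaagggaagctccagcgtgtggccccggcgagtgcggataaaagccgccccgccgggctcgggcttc

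ID1 (GRCh38, chr20:31605283-31606515, plus strand) rose early. At 4 h it measured 481, 569 and 495 CPM with DMSO, 726, 1091 and 785 CPM under i-BET858 and 645, 1051 and 728 CPM under i-BET151. All treated libraries lay above all controls, with replicate 2 highest in each group. The rise was 1.69-fold under i-BET858 (log2 0.76 ± 0.19, edgeR adjusted p = 0.0107) and 1.57-fold under i-BET151 (log2 0.65 ± 0.19, edgeR adjusted p = 0.0397). Without replicate 2 of i-BET858 the first was 0.56 (edgeR adjusted p = 0.0542), and without replicate 2 of i-BET151 the second was 0.41 (edgeR adjusted p = 0.172). The second also lost its call without replicate 1, 2 or 3 of DMSO (edgeR adjusted p = 0.134, 0.0671 and 0.113) and when libraries were scaled by their totals (log2 0.59, edgeR adjusted p = 0.0671).

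At 24 h ID1 measured 448, 518 and 518 CPM with DMSO, 930, 1306 and 1125 CPM under i-BET858 and 860, 640 and 792 CPM under i-BET151. The 3 groups did not overlap. The rise was 2.20-fold under i-BET858 (log2 1.14 ± 0.15, edgeR adjusted p = 0.000144) and 1.52-fold under i-BET151 (log2 0.61 ± 0.15, edgeR adjusted p = 0.00902). From 4 to 24 h the effect of i-BET858 changed by 0.43 ± 0.25 (edgeR adjusted p = 0.239, and 0.0294 with the replicate block) and that of i-BET151 by −0.02 ± 0.25 (edgeR adjusted p = 0.968).

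ID2 (GRCh38, chr2:8678845-8684461, plus strand) rose late. At 4 h it measured 114, 136 and 131 CPM with DMSO, 156, 175 and 156 CPM under i-BET858 and 130, 185 and 140 CPM under i-BET151. The group under i-BET858 lay above the controls without overlap, but neither change was called (log2 0.36 ± 0.14, edgeR adjusted p = 0.0784, and 0.25 ± 0.14, edgeR adjusted p = 0.270). Both passed with the replicate block (edgeR adjusted p = 0.00377 and 0.0497), and the first also with DESeq2 (adjusted p = 0.0481), in a fit of 2 groups only (edgeR adjusted p = 0.0448) and without replicate 2 of i-BET151 (edgeR adjusted p = 0.0462). At 24 h ID2 measured 100.5, 124 and 130 CPM with DMSO, 323, 490 and 395 CPM under i-BET858 and 282, 215 and 271 CPM under i-BET151. No treated library came near a control. The rise was 3.32-fold under i-BET858 (log2 1.73 ± 0.17, edgeR adjusted p = 2.60e-05) and 2.13-fold under i-BET151 (log2 1.09 ± 0.17, edgeR adjusted p = 0.000728).

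The effect on ID2 grew from 4 to 24 h by 1.41 ± 0.23 under i-BET858 (edgeR adjusted p = 0.000185) and by 0.86 ± 0.23 under i-BET151 (edgeR adjusted p = 0.0173). The latter missed the threshold without replicate 1 of i-BET151 at 4 h (log2 0.76, edgeR adjusted p = 0.0508). ID2 overlaps ID2-AS1 on the other strand, with the same limit as for BMP4.

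ID3 (GRCh38, chr1:23557926-23559501, minus strand) measured 76.8, 105 and 111 CPM with DMSO, 84.0, 117 and 119 CPM under i-BET858 and 69.3, 110 and 125 CPM under i-BET151 at 4 h. The groups overlapped, and the changes of 0.13 ± 0.22 (95% interval −0.36 to 0.63) and 0.05 ± 0.22 (−0.44 to 0.55) were not called. At 24 h it measured 73.4, 87.9 and 154 CPM with DMSO, 170, 242 and 218 CPM under i-BET858 and 136, 106 and 138 CPM under i-BET151. Replicate 3 of DMSO was far above the other 2 controls. The rise under i-BET858 was 1.94-fold (log2 0.96 ± 0.26, edgeR adjusted p = 0.0117) and the change under i-BET151 was 0.24 ± 0.25 (edgeR adjusted p = 0.506). Without all of replicate 3 these changes were 1.32 (edgeR adjusted p = 1.84e-05) and 0.55 (edgeR adjusted p = 0.0111), and without replicate 3 of DMSO alone the latter was 0.65 (edgeR adjusted p = 0.0179). The growth of the effect of i-BET858 from 4 to 24 h, 0.87 ± 0.36 (edgeR adjusted p = 0.0800), likewise passed with the replicate block (edgeR adjusted p = 0.00157), without the filter on low counts (edgeR adjusted p = 0.000161), without all of replicate 3 (log2 1.19, edgeR adjusted p = 0.00864) and without replicate 3 of DMSO at 24 h (log2 1.25, edgeR adjusted p = 0.00710).

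**Figure D3:**
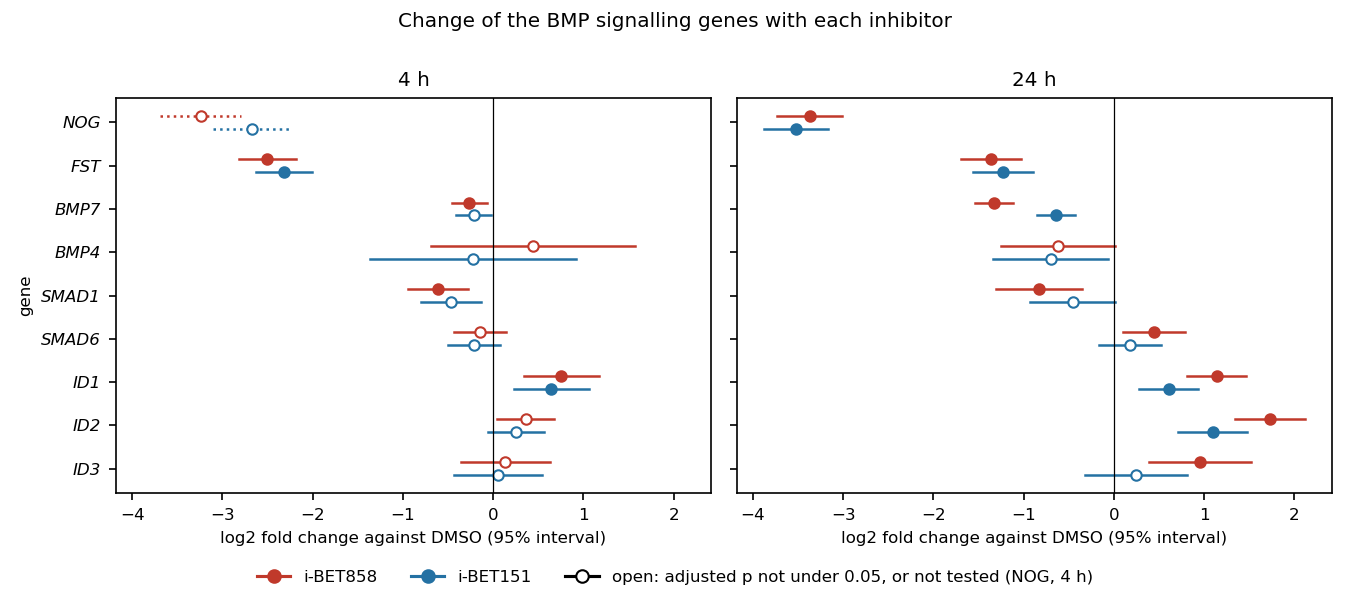
Fitted log2 fold change against DMSO with its 95% interval for 9 of the genes, at 4 h (left) and 24 h (right), for both compounds. Filled points passed the adjusted p of 0.05 in edgeR. Dotted intervals mark NOG at 4 h, which chose the list and was not tested, so they are not to be read as a test. ID2 moves from 0.36 at 4 h to 1.73 at 24 h under i-BET858, and FST from −2.50 to −1.36.

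Of the listed BMP target genes, 14 were tested, the members ID1, ID2, ID3 and SMAD6 and also BAMBI among them. With i-BET858 6 of the 14 rose and RUNX2 fell at 4 h, and 7 rose and 3 fell at 24 h, beside 30.8% and 41.7% of all transcripts called. With i-BET151 the counts were 5 and 1 at both times, beside 16.2% at 4 h and 33.8% at 24 h. MSX1, a homeobox gene, went from 0.404 ± 0.163 CPM with DMSO to 10.98 ± 3.67 under i-BET858 and 4.09 ± 2.08 under i-BET151 at 4 h (edgeR adjusted p = 4.89e-05 and 0.00110). At 24 h it was at 1.49 ± 0.341 and 0.825 ± 0.410 CPM, beside 0.224 ± 0.0405 with DMSO. Both rises were still called (edgeR adjusted p = 0.00224 and 0.0211). ID4, the fourth ID gene, rose with both compounds at both times (log2 1.16 ± 0.21 and 0.73 ± 0.21 at 4 h, 1.62 ± 0.24 and 0.92 ± 0.24 at 24 h). ATOH8 and HEY1 were lower under i-BET858 at 24 h (log2 −2.08 ± 0.57 and −0.89 ± 0.23). HEY1 was also called as lower under i-BET151 at 24 h. ATOH8 was called as lower there with the replicate block, with DESeq2 and without replicate 3. SMAD7 and SMAD9 were called in none of these 4 comparisons, but with the replicate block SMAD7 was called as higher under i-BET858 at 24 h and SMAD9 as lower under i-BET151 at 4 h. The targets thus did not move as a block.

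Of the 3 E-protein genes, whose products the ID proteins capture, TCF12 and TCF4 fell with both compounds at 4 h, and at 24 h TCF3 also did. Of all transcripts, 16.3% (i-BET858) and 8.43% (i-BET151) were called as lower at 4 h, and 21.3% and 16.6% at 24 h. TCF3 went from 192 ± 3.17 CPM with DMSO to 94.9 ± 7.12 under i-BET858 and 110 ± 11.1 under i-BET151 at 24 h (edgeR adjusted p = 2.45e-05 and 0.000193). TCF4 went from 52.4 ± 5.36 to 25.6 ± 3.91 and 29.3 ± 4.32 CPM (edgeR adjusted p = 0.000224 and 0.00130).

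**Figure D4:**
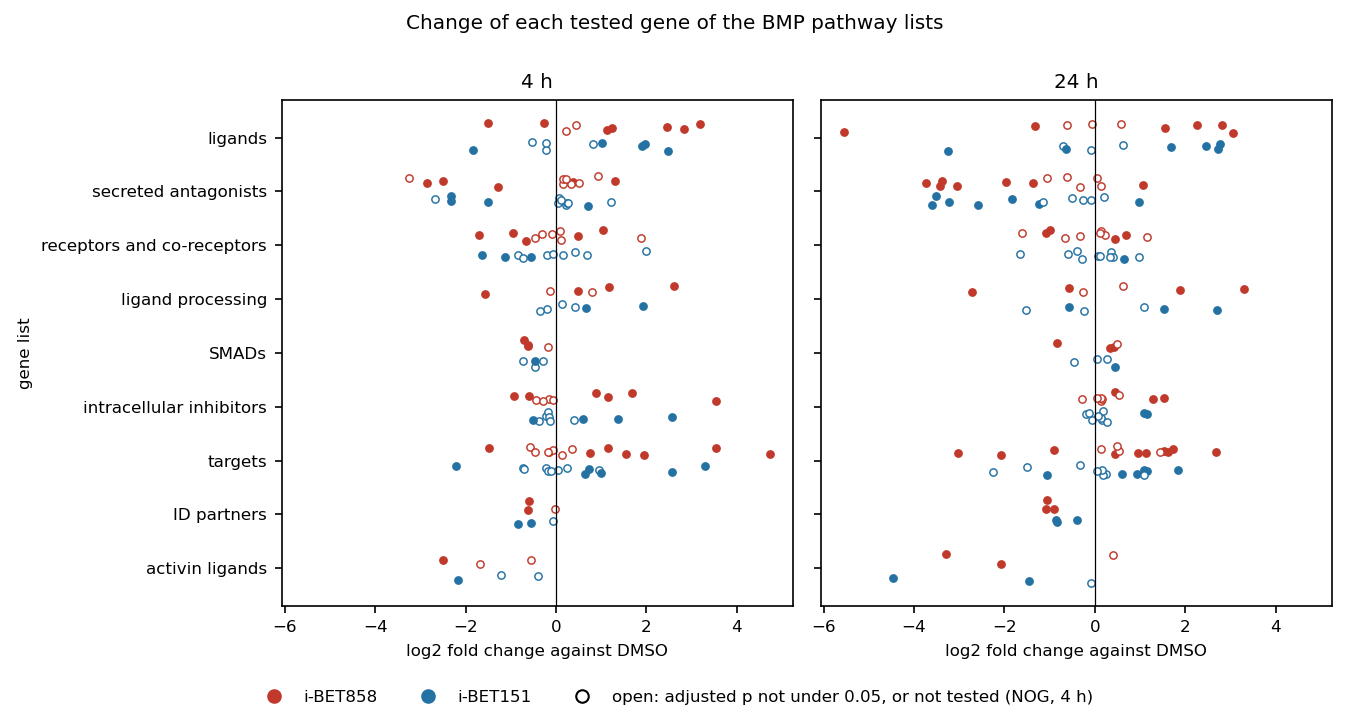
Fitted log2 fold change against DMSO of each tested gene of 9 BMP pathway lists (rows), at 4 h (left) and 24 h (right), with a point for each gene and compound. Filled points passed the adjusted p of 0.05 in edgeR. The antagonists, NOG and FST included, are shifted to the left at 24 h (median −1.21 under i-BET858) and the ID partners are all left of 0.

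Over the 84 distinct genes of these pathway lists, 67 could be tested at 4 h (without NOG) and 68 at 24 h. With i-BET858, 21 rose and 18 fell at 4 h and 19 rose and 21 fell at 24 h, where 30.8% and 41.7% of all transcripts were called. With i-BET151 the counts were 14 and 13 at 4 h and 15 and 15 at 24 h, beside 16.2% and 33.8% of all. The replicate block gave 20 and 21 at 4 h and 19 and 24 at 24 h, where 5616 and 7870 transcripts were called. Under i-BET858 it gave 23 and 20, and 20 and 25, where 7798 and 8926 were called. Between compounds the block called 13 pathway genes at 4 h and 8 at 24 h, against 1 at each time. Of all transcripts it called 1655 and 749, against 167 and 36. Without the block, the medians over the pathway genes lay between −0.07 and 0.12 on the log2 scale, beside −0.01 to 0.02 over all transcripts. Without replicate 3 the counts at 4 h were 22 higher and 18 lower under i-BET858 and 16 and 13 under i-BET151, of 67, where 7166 and 4433 of 17116 transcripts were called. Without replicate 3, 10507 of 17297 transcripts were called under i-BET858 at 24 h and 9367 under i-BET151, and the pathway counts rose too. The antagonists then had 8 lower of 13 under i-BET858 and 9 under i-BET151. Of 11 receptors and co-receptors 8 and 5 were called, and of 10 intracellular inhibitors 6 and 3. The 14 targets had 8 higher, SMAD7 among them, and 3 lower under i-BET858, and 6 higher and 3 lower under i-BET151. Over the 69 pathway genes tested in this way, 23 were higher and 29 lower under i-BET858, and 19 higher and 28 lower under i-BET151. Exons of BMP6, BMP8A, BMP8B, SMAD5, KCP, CRIM1, FSTL1, ACVR2A, RGMB and TCF4 also overlap genes on the other strand, with the limit given for BMP4. Exons of SMAD4, SMAD5, SOSTDC1, AMH, KCP and FSTL1 overlap genes on their own strand, where no strand setting separates the pair.

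The compounds were compared directly at equal dose and time. At 4 h none of the 8 members tested differed, by edgeR or by DESeq2, where 0.971% of all transcripts were called in edgeR (0.413% higher and 0.558% lower), and 0.209% with a 2-fold threshold. None of the 8 had an unadjusted p under 0.05 in edgeR, while 2043 of all 17192 transcripts did. The groups did not overlap for 16.8% of all transcripts. The 95% intervals still allow differences, from −0.24 to 0.15 for BMP7, −0.49 to 0.12 for FST and −0.31 to 0.53 for ID1 on the log2 scale. NOG was 1.48-fold lower under i-BET858 than under i-BET151 at 4 h (log2 −0.57), with 1 of 9 pairs in the other direction. This difference is given without a test, because NOG was chosen on its 4 h values.

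At 24 h BMP7 was the 1 member of 9 called, where 0.21% of all transcripts were called (0.0933% higher and 0.117% lower). No member passed a 2-fold threshold as well, against 0.0641% of all transcripts. ID1, ID2 and ID3 were each higher under i-BET858 in 9 of 9 pairs, by 0.54 ± 0.15 (edgeR adjusted p = 0.181), 0.64 ± 0.17 (edgeR adjusted p = 0.171) and 0.71 ± 0.25 (edgeR adjusted p = 0.301), and 19.5% of all transcripts did not overlap between the groups. With the replicate block ID1 and ID2 were called (edgeR adjusted p = 0.0405 and 0.0329), as they were by DESeq2 (adjusted p = 0.0233 and 0.0168), and without replicate 3 so was ID3 as well (edgeR adjusted p = 0.0403, 0.0296 and 0.0128 for ID1, ID2 and ID3). All 3 were also called without the filter on low counts (edgeR adjusted p = 0.00191, 0.000115 and 1.51e-05). Over all transcripts the calls went from 36 of 17157 to 749 with the block and 547 with DESeq2, to 1261 of 17297 without replicate 3, and to 343 of 31703 without the filter. NOG (log2 0.15, 95% interval −0.19 to 0.49), FST (−0.13, −0.46 to 0.20), SMAD1 (−0.37, −0.85 to 0.10), SMAD6 (0.26, −0.08 to 0.61) and BMP4 (0.08, −0.56 to 0.71) were not called.

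The change of each effect from 4 to 24 h was called for 4 of 8 members tested under i-BET858 (BMP7, FST, ID2 and SMAD6), against 27.2% of all 18154 transcripts tested (14.6% upward and 12.6% downward). It was called for 3 under i-BET151 (BMP7, FST and ID2), against 13.8% (6.99% and 6.82%). With a 2-fold threshold as well these were 3 (BMP7, FST and ID2) and 1 (FST), against 15.1% and 6.7%.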

How the data were processed

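RNA was sequenced from 18 libraries, 3 for each of 6 groups. The deposited values are raw gene counts, which the authors made by aligning reads to GRCh38 (hg38) with STAR and counting with its GeneCounts mode. The tool versions, the annotation and the strand setting are not given in the sources used here. No column of other samples was present (0).

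The counts were tested with edgeR 4.0.16 (R 4.3.3, limma 3.58.1): TMM factors, the filterByExpr filter on low counts, quasi-likelihood tests and Benjamini-Hochberg adjustment over all genes tested. Each time point was fitted on its 9 libraries, and the change with time on 18. CPM used TMM-scaled library sizes, and levels between genes were divided by exon length. Correlations used log2 CPM with a prior count of 2. Symbols came from an Ensembl table, which matched 58472 of 58825 identifiers, and coordinates from GENCODE 44. RefSeq promoters were found for 7 of the 10 members. The procedure was tested on simulated data.

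The members, the 9 pathway lists and the tests were chosen with earlier results of these data known. Beyond the members, the genes of each list with the strongest called change with i-BET858 (up to 2 a time point) were to be named, together with the 5 transcripts most like NOG. The other pathway genes were named after their values were seen. Proteins and the promoter of NOG are not analysed here. Same-numbered libraries deviated together from their group means (r = 0.140 to 0.363 at 4 h and 0.160 to 0.353 at 24 h, 9 pairs each). Libraries of different numbers gave −0.339 to 0.233 and −0.330 to 0.328 (18 pairs each), with the values above 0 between replicates 1 and 2. The numbers, taken from the labels, were treated as pairing the libraries, with the tests unblocked and the block as an alternative. The alternatives were the replicate block, DESeq2 1.42.0, its size factors in edgeR, scaling by library totals, no filter on low counts, fitting 2 groups only, a 2-fold threshold, and leaving out each library or replicate 3.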

Additional observations from a re-analysis of the deposited data

Results flagged for a closer look

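The effect of a compound differed between 4 and 24 h for 4 members with i-BET858 and 3 with i-BET151, by the edgeR test of the interaction, which called 27.2% and 13.8% of all transcripts. ID2 gained 1.41 on the log2 scale with i-BET858 (edgeR adjusted p = 0.000185) and 0.86 with i-BET151 (edgeR adjusted p = 0.0173). The fall of FST shrank by 1.19 (edgeR adjusted p = 0.000339) and 1.11 (edgeR adjusted p = 0.00171). BMP7 changed by a further −1.02 (edgeR adjusted p = 1.66e-05) and −0.41 (edgeR adjusted p = 0.0382). SMAD6 gained 0.63 with i-BET858 (edgeR adjusted p = 0.0311). The 2 compounds share the DMSO libraries, so the entries for i-BET858 and i-BET151 are not independent.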

How the results depend on the processing

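The falls of FST with both compounds at both times, and of NOG with both at 24 h, kept their direction and call under every alternative run. So did the falls of SMAD1 with i-BET858 and the changes of BMP7, ID1 and ID2 against DMSO at 24 h. The exception was the 2-fold threshold, which left out SMAD1 with i-BET858 at both times and BMP7 and ID1 with i-BET151 at 24 h. The fall of NOG at 4 h chose the list, so its direction there was fixed in advance and is no support. Over the fold changes of single members and the 5 likenesses to NOG, and apart from the 2-fold threshold, 1174 values kept direction and call, 50 lost the call, 39 gained it and 38 changed sign; the cause was not tested. The number of members called with a 2-fold threshold was 1 at 4 h with either compound, 5 with i-BET858 and 3 with i-BET151 at 24 h (14.1%, 7.1%, 18.8% and 13.7% of all transcripts), 0 between compounds at 24 h (0.0641%) and 1 for the change of i-BET151 with time (6.7%). The replicate block gave 5 with i-BET151 at 4 h and 3 between compounds at 24 h, where DESeq2 gave 3, no low-count filter 4 and fitting 2 groups 0, while the calls over all transcripts between compounds at 24 h went from 36 to 749, 547, 343 and 1 in the same order. Over all transcripts the block called 5616 with i-BET151 at 4 h, against 2791. Leaving out a library or replicate 3 gave counts of 2 to 4 (i-BET858) and 1 to 3 (i-BET151) at 4 h, 7 to 8 and 5 to 8 at 24 h, 0 to 4 between compounds at 24 h, and 3 to 5 and 1 to 3 for the change with time. Apart from the calls given beside the results, the replicate block changed no other call of a member.

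Scaling by library totals moved the median of all transcripts with i-BET858 at 4 h to −0.14, and gave ID3 −0.031 with i-BET858 and −0.012 with i-BET151 at 4 h, and −0.019 for ID3 and −0.036 for SMAD6 between compounds. The change with time under i-BET151 was 0.015 for ID1 with the block and −0.0088 for SMAD1 with DESeq2 or its size factors. Changes near 0 also crossed it when libraries were left out. At 4 h these were ID3 with i-BET858 (−0.020 to 0.28), and BMP4 (−0.67 to 0.18) and ID3 (−0.13 to 0.27) with i-BET151. Between compounds at 4 h they were ID1 (−0.092 to 0.34), ID2 (−0.00088 to 0.28), ID3 (−0.14 to 0.26) and SMAD6 (−0.014 to 0.15), and at 24 h NOG (−0.0022 to 0.31), FST (−0.24 to 0.031) and BMP4 (−0.0079 to 0.33). For the change with time they were NOG (−0.30 to 0.12) and SMAD1 (−0.34 to 0.0060) with i-BET858, and ID1 (−0.16 to 0.20) and SMAD1 (−0.18 to 0.21) with i-BET151. With 3 libraries a group, changes of low transcripts such as BMP4 were poorly resolved.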

Other observations

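Activins signal through type II receptors that BMPs also use, and follistatin binds them. INHBB, which encodes the subunit of activin B, went from 102 ± 22.2 CPM (SD, n = 3) with DMSO to 17.96 ± 4.08 under i-BET858 and 22.8 ± 8.20 under i-BET151 at 4 h (edgeR adjusted p = 5.60e-05 and 0.000361). At 24 h it went from 90.3 ± 30.4 CPM to 21.9 ± 5.86 and 33.5 ± 8.58 (edgeR adjusted p = 0.000217 and 0.00260). INHBB thus fell with both compounds at both times, as FST did. INHBE fell at 24 h from 1.30 ± 0.665 CPM to 0.132 ± 0.117 and 0.0588 ± 0.0816 (edgeR adjusted p = 0.0324 and 0.0152), and INHBC, the third tested gene of this list, was not called. INHBE overlaps a gene on the other strand, so reads of the pair cannot be told apart.

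Among genes that process BMPs and their antagonists, the proteases TLL1 and TLL2, relatives of BMP1, moved apart. TLL2 rose from 2.39 ± 0.445 CPM with DMSO to 24.1 ± 6.81 under i-BET858 and 15.8 ± 5.92 under i-BET151 at 24 h (edgeR adjusted p = 2.51e-05 and 0.000139). TLL1 fell from 2.01 ± 0.153 to 0.309 ± 0.207 CPM under i-BET858 (edgeR adjusted p = 0.00451) and stood at 0.715 ± 0.399 under i-BET151 (edgeR adjusted p = 0.0666), where it was called with the replicate block. BMP1 itself was higher under i-BET858 at 4 h (log2 0.48 ± 0.11, edgeR adjusted p = 0.00818) and lower at 24 h (log2 −0.56 ± 0.11, edgeR adjusted p = 0.00224). The change of its effect from 4 to 24 h was −0.995 (edgeR adjusted p = 0.000123). Under i-BET151 BMP1 was not called at 4 h, was called as lower at 24 h, and had a called downward change of the effect with time. PCSK5, a convertase that cleaves proproteins, rose with both compounds at both times. The genes of this paragraph that are not named by the rule, BMP1 and PCSK5, were chosen after their values were seen. BMP1 overlaps a gene on the other strand, with the same limit, and a gene on its own strand, where no strand setting separates the pair.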
